A study of Arabidopsis thaliana with 6 samples.

Results

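A set of 10 genes of iron uptake and iron-deficiency signaling was followed in root tips of the *bron-2* mutant and of wild type *Arabidopsis thaliana*. The genes were taken by locus, and all were found among the 33560 genes of the deposited expression table: the uptake genes *IRT1*, *FRO2* and *AHA2*, the transcription factors *FIT*, *bHLH38*, *bHLH39*, *bHLH100* and *bHLH101*, the regulator *BTS* and the ferritin *FER1*. *bron-2* is a line with a T-DNA in BRONTOSAURUS (BRON, AT1G75710), a transcription factor gene that responds to brassinosteroids, and the wild type was the Columbia-0 accession. RNA came from about 2 mm of root tip of 5-day-old seedlings of both genotypes, grown on MS medium with 1% sucrose under 16 h of light and 8 h of dark, with 3 biological replicates of pooled plates for *bron-2* and 3 for the wild type. No library was labelled as grown without iron, and the mutant is a line with 1 allele.

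Iron in soil is mostly ferric and poorly soluble. Arabidopsis roots acidify their surroundings through proton pumps, reduce ferric iron at the surface of epidermal cells, and import the ferrous iron. When iron is short, subgroup Ib bHLH factors pair with FIT to turn on the reductase and transporter genes, and E3 ligases of the BTS type hold the response back. When iron is plentiful, ferritins store it inside plastids. FIT and its targets act in the epidermis, where root hairs form.

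Expression was measured as FPKM, which scales the fragments of a gene by transcript length and by the mapped fragments of the library, so that levels of different genes can be set side by side. FPKM does not give read numbers. The steps between the lowest values put the relative depth at 1.19 to 1.25 in *bron-2* and 0.966 to 1.103 in the wild type, with wild type replicate 1 set to 1, so the *bron-2* libraries were deeper. *BRON* averaged 1.09 ± 0.163 FPKM in *bron-2* and 17.1 ± 0.940 FPKM in the wild type (SD, n = 3 each). Of the 6 root hair markers none was called between genotypes, and their summed level was 2573 to 3221 FPKM in *bron-2* and 2694 to 2816 FPKM in the wild type. Most of this sum was *PRP3*, at 1789 to 2175 FPKM in *bron-2* and 1785 to 1959 FPKM in the wild type. The summed endodermis markers lay between 1475 and 2017 FPKM in *bron-2* and between 1052 and 1675 FPKM in the wild type, and the 2 non-hair epidermis markers between 29.2 and 35.8 FPKM in *bron-2* and between 34.8 and 40.7 FPKM in the wild type. Most of the endodermis sum was *CASP1*, at 1011 to 1378 FPKM in *bron-2* and 704 to 1191 FPKM in the wild type. The 3 leaf markers summed to 1.59 to 3.15 FPKM in *bron-2* and 2.54 to 5.51 FPKM in the wild type, and one of them, *RBCS2B*, was listed at 0 in all libraries. Single markers were called lower for non-hair epidermis (*WER*, -0.50, 1 of 2 tested), meristem (*PLT2*, -0.40, 1 of 3) and leaf (*RBCS1A*, -0.64, 1 of 1). For endodermis 1 of 4 was called, *CASP2* (0.44, higher), and *CASP1* (0.32), *SCR* (0.06) and *MYB36* (-0.06) were not. No marker was called for root cap (3 tested) or stele (1 tested). Of all tested genes, 9.79% were called. The part that these marker shifts have in the results below was not tested.

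The 10 genes covered a wide range of levels. *AHA2*, a plasma membrane proton pump, was the highest with a mean of 793 FPKM over the 6 libraries, followed by *FIT* (95.9 FPKM), *FER1* (60.6 FPKM), *IRT1* (47.0 FPKM), *BTS* (21.4 FPKM), *FRO2* (12.6 FPKM), *bHLH39* (4.97 FPKM), *bHLH101* (1.99 FPKM), *bHLH38* (0.666 FPKM) and *bHLH100* (0.624 FPKM). Between neighbors in this order, the libraries of *AHA2* and *FIT*, of *FIT* and *FER1*, and of *bHLH39* and *bHLH101* did not overlap, and the libraries of every other neighboring pair did. The order of the means differed between genotypes at 2 places. *FER1* averaged more than *IRT1* in *bron-2* (73.5 against 35.5 FPKM) and less in the wild type (47.6 against 58.5 FPKM), and *bHLH38* averaged less than *bHLH100* in *bron-2* (0.258 against 0.426 FPKM) and more in the wild type (1.07 against 0.823 FPKM). *FIT* was abundant in these root tips, whereas all 4 Ib partners were at or below 8.53 FPKM in every library.

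**Figure D1:**
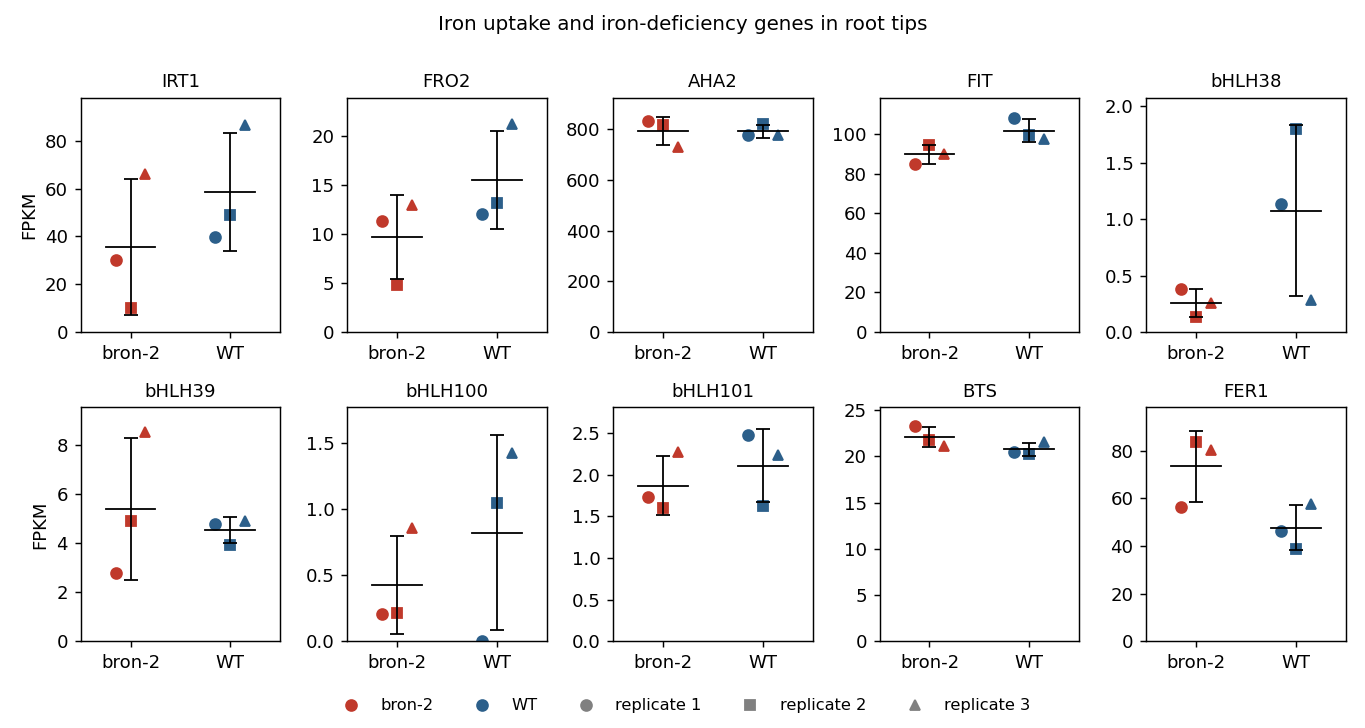
FPKM of each of the 10 genes in the 3 *bron-2* (left, red) and 3 wild type (WT, right, blue) libraries, with marker shape giving the replicate number, horizontal lines the mean and bars the SD (n = 3), on linear axes that start at 0. *FIT* is the only gene of the 10 whose groups do not overlap, beside 15.7% of all tested genes. *IRT1* and *FRO2* have their lowest value in *bron-2* replicate 2 and their highest in wild type replicate 3.

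To ask whether these genes differed in the mutant, log2(FPKM + 1) was compared between genotypes by limma in 17107 genes whose mean reached 1 FPKM. Differences are *bron-2* minus wild type in these log2 units, where the added 1 shrinks the change of weakly expressed genes. A gene is called when its unadjusted limma p-value is below 0.05, a cutoff that the study applied to a different test. Values of each genotype are given in the order of replicates 1, 2 and 3, and gene positions are those of the TAIR10.1 annotation of RefSeq. Of the 10 genes, 8 were tested, and *bHLH38* and *bHLH100* fell below the filter. One gene was called, *FER1*, and it was higher in *bron-2*. This is 12.5% of these 8 genes, beside 9.79% of all tested genes. The median difference of the 8 genes was -0.06, with 4 higher and 4 lower, and that of all tested genes was -0.000995. No iron gene passed an adjusted p-value under 0.05 (limma, Benjamini-Hochberg method over the 17107 genes), which 0.0818% of all tested genes did, and the smallest adjusted p-value among the 8 was 0.366.

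Among the genes that act at the root surface, *IRT1* (AT4G19690, chr4:10707344-10709015, plus strand) encodes the main importer of ferrous iron. It measured 30.1, 10.13 and 66.2 FPKM in the *bron-2* libraries, against 39.7, 49.1 and 86.6 FPKM in the wild type libraries. The groups overlapped, with *bron-2* replicate 2 far below the others and replicate 3 high in both genotypes. The mean was 35.5 ± 28.4 FPKM in *bron-2* and 58.5 ± 24.8 FPKM in the wild type (SD, n = 3 each). The difference was -0.98 with a standard error of 0.60 and a limma 95% interval of -2.36 to 0.40, or 0.194-fold to 1.32-fold (unadjusted limma p = 0.140, adjusted p = 0.636, exact permutation p = 0.4). *IRT1* was not called. In bulk root tips, a change in the number of cells that express *IRT1* and a change in *IRT1* RNA per cell cannot be told apart.

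*FRO2* (AT1G01580, chr1:208995-213082, plus strand), the ferric chelate reductase that supplies IRT1, measured 11.3, 4.82 and 12.9 FPKM in the *bron-2* libraries, against 12.1, 13.2 and 21.3 FPKM in the wild type libraries. As for *IRT1*, *bron-2* replicate 2 was the lowest library and wild type replicate 3 the highest, and the groups overlapped. The difference was -0.68 (standard error 0.34, interval -1.48 to 0.11, unadjusted limma p = 0.0823, adjusted p = 0.563, exact permutation p = 0.2). The call of both genes changed when 1 library was left out. Without *bron-2* replicate 3, both were called lower in *bron-2*, with differences of -1.60 for *IRT1* and -0.92 for *FRO2*. Without *bron-2* replicate 2 neither was called, and the differences were -0.30 for *IRT1* and -0.29 for *FRO2*.

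*AHA2* (AT4G30190, chr4:14770395-14776247, minus strand), the proton pump that contributes most to acidification of the root surface under iron shortage, was much steadier. It measured 833, 818 and 731 FPKM in the *bron-2* libraries, against 777, 823 and 776 FPKM in the wild type libraries. The libraries of the genotypes were interleaved. The difference was 0.000873 with an interval of -0.18 to 0.18 (unadjusted limma p = 0.991, exact permutation p = 1), equivalent to between 0.884-fold and 1.13-fold. The sign of this difference turned negative in 4 of the fits that left out 1 library.

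The uptake genes differed in how much they varied between libraries of the same genotype. The within-genotype SD of log2(FPKM + 1) was 1.00 for *IRT1*, larger than in 99.5% of all tested genes, and 0.56 for *FRO2*, larger than in 98.02%. In contrast, it was 0.08 for both *AHA2* and *FIT* and 0.06 for *BTS*, compared with a median of 0.15 over all tested genes. Among genes within 0.5 log2 units of the same level, the median SD was 0.13 for the 2111 genes near *IRT1* and 0.15 for the 3547 genes near *FRO2*. These SDs were pooled over both genotypes. By genotype, the SD of *IRT1* was 1.30 in *bron-2* and 0.57 in the wild type. That of *FRO2* was 0.68 in *bron-2* and 0.41 in the wild type.

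**Figure D2:**
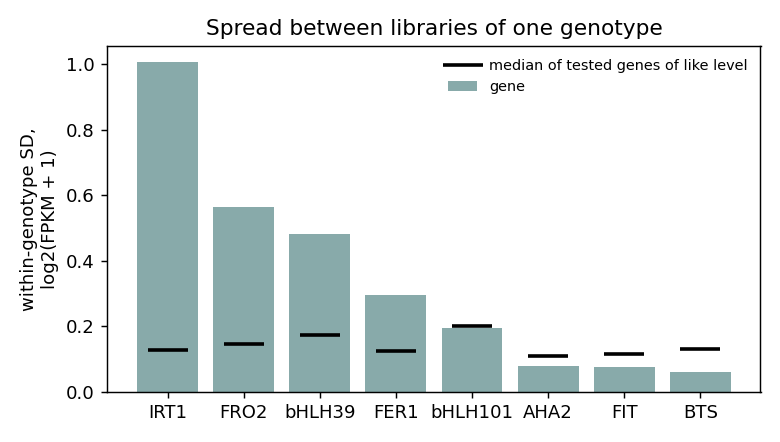
Within-genotype standard deviation of log2(FPKM + 1) for the 8 tested genes (bars, pooled over the 3 *bron-2* and 3 wild type libraries) and the median of tested genes within 0.5 log2 units of the same mean level (black lines). *IRT1* (1.00), *FRO2* (0.56), *bHLH39* (0.48) and *FER1* (0.29) stand above their lines, and *AHA2*, *FIT* and *BTS* stand below theirs. By genotype, the SD of *bHLH39* was 0.67 in *bron-2* and 0.14 in the wild type, beside a line at 0.17.

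*IRT1* and *FRO2* varied together. Over the 6 libraries Pearson's r between their log2(FPKM + 1) values was 0.962 (two-sided exact permutation p = 0.00278, adjusted p = 0.0278 over 10 relations), and Spearman's rho was 0.943 (two-sided exact permutation p = 0.0167, adjusted p = 0.167). Without *bron-2* replicate 2 and wild type replicate 3, the libraries farthest from the median of *IRT1*, r was 0.885. With each library taken as its deviation from the genotype mean r was 0.953, so the relation did not rest on the difference between genotypes. For *FIT*, r was 0.139 to *IRT1* (exact permutation p = 0.786) and 0.154 to *FRO2* (exact permutation p = 0.810). On deviations from the genotype mean, it was -0.576 to *IRT1* and -0.730 to *FRO2*, values for which no test was made. The ratio of *IRT1* to *FIT* was 0.354, 0.107 and 0.735 in the *bron-2* libraries, against 0.367, 0.493 and 0.886 in the wild type libraries.

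**Figure D3:**
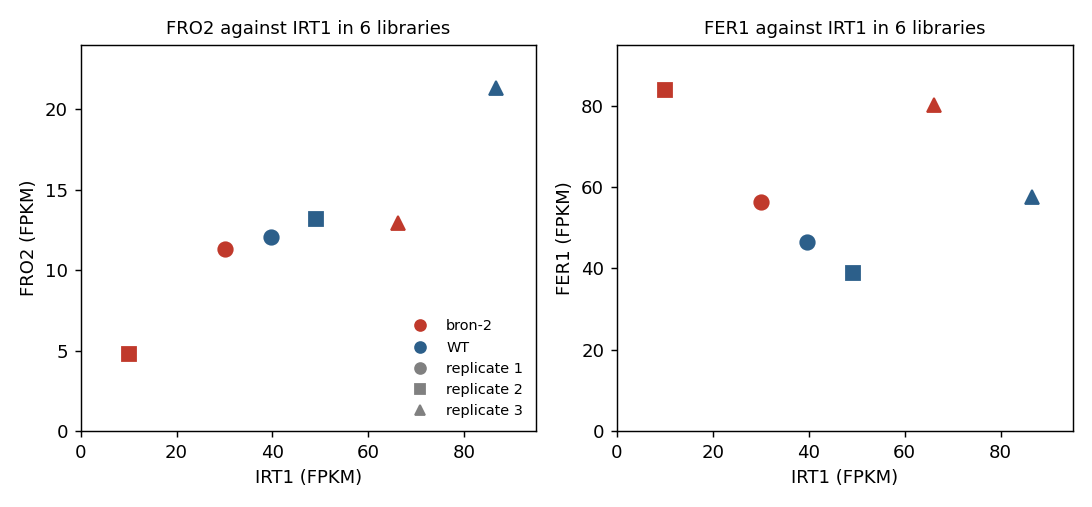
FPKM of *FRO2* (left) and *FER1* (right) against *IRT1* in the 3 *bron-2* (red) and 3 wild type (WT, blue) libraries, with marker shape giving the replicate number and linear axes that start at 0. *FRO2* rises with *IRT1* over the 6 libraries, whereas *FER1* was at 83.8 FPKM in *bron-2* replicate 2, where *IRT1* was at 10.13 FPKM, and at 80.2 FPKM in *bron-2* replicate 3, where *IRT1* was at 66.2 FPKM.

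*FIT* (AT2G28160, chr2:12004658-12006276, plus strand) encodes the bHLH factor that *IRT1* and *FRO2* need for induction. It measured 85.1, 94.5 and 89.98 FPKM in the *bron-2* libraries, against 108, 99.6 and 97.8 FPKM in the wild type libraries. Every *bron-2* library lay below every wild type library, as in 8.67% of all tested genes, although the step between the nearest libraries was small. The *bron-2* mean was 88.1% of the wild type mean, and the difference was -0.18 (standard error 0.08, interval -0.36 to 0.00342). The unadjusted limma p-value was 0.0534 and the adjusted one 0.520, and an exact permutation test gave the smallest p that 3 libraries against 3 allow, 0.1. *FIT* was not called, and the interval of its fold reached from 0.777 to 1.00.

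The 4 subgroup Ib bHLH genes, which encode the partners of FIT and are sensitive markers of iron shortage, were low in both genotypes. *bHLH39* (AT3G56980, chr3:21086390-21087710, minus strand) was the highest, with 2.79, 4.89 and 8.53 FPKM in the *bron-2* libraries, against 4.78, 3.94 and 4.92 FPKM in the wild type libraries. The *bron-2* libraries spanned the wild type ones on both sides. The difference of 0.11 had an interval of -0.58 to 0.81 (unadjusted limma p = 0.721, exact permutation p = 0.8), and it became -0.23 without *bron-2* replicate 3. *bHLH101* (AT5G04150, chr5:1138410-1139633, minus strand) measured 1.74, 1.60 and 2.27 FPKM in the *bron-2* libraries, against 2.48, 1.63 and 2.23 FPKM in the wild type libraries, with a difference of -0.11 and an interval of -0.49 to 0.26 (unadjusted limma p = 0.502, exact permutation p = 0.6). It overlaps 79 bases of AT5G04140 on the other strand, which was at 1.30 to 1.57 FPKM in *bron-2* and 1.69 to 2.36 FPKM in the wild type, so reads in that stretch cannot be assigned without strand.

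*bHLH38* (AT3G56970, chr3:21084035-21085245, minus strand) measured 0.383, 0.135 and 0.256 FPKM in the *bron-2* libraries, against 1.14, 1.80 and 0.285 FPKM in the wild type libraries. Wild type replicates 1 and 2 were higher than the remaining libraries, and wild type replicate 3 lay within the range of *bron-2*. After scaling by relative depth these values were whole multiples of the smallest one to within 3%, namely 3, 1 and 2 steps in *bron-2* and 7, 11 and 2 steps in the wild type. The largest distance was 0.205 of a step, at the value counted as 11, where a tolerance of 3% is loose. A step is worth at least 1 read, and with so few steps the level of *bHLH38* was barely resolved. The values of *bHLH100* (AT2G41240, chr2:17198037-17199454, minus strand) were 0.206, 0.216 and 0.855 FPKM in *bron-2* and 0, 1.05 and 1.42 FPKM in the wild type, or 1, 1 and 4 steps in *bron-2* and 0, 4 and 6 steps in the wild type. Its groups overlapped as well. *bHLH38* shares 386 bases with AT3G56960 on the other strand, which was at 0.397 to 0.611 FPKM in *bron-2* and 0.417 to 0.511 FPKM in the wild type.

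*bHLH38* and *bHLH39* lie in tandem on the minus strand of chromosome 3, 1144 bases apart (TAIR10.1 annotation, RefSeq), yet *bHLH39* was the higher gene in each of the 6 libraries. None of the pairwise correlations among the 4 Ib genes was resolved with 6 libraries. For *bHLH38* and *bHLH39*, r was -0.297 (exact permutation p = 0.547), and the lowest exact permutation p among these pairs was 0.336, for *bHLH39* and *bHLH101*. Identical stretches of 100 bases, the read length, were sought between longest transcripts within the Ib, ferritin, IRT, NAS and AHA families and among *FRO1* to *FRO5*. None was found in the 34 pairs compared. Stretches with mismatches were not compared, so reads shared between relatives are not excluded.

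bHLH factors bind hexamers of the form CANNTG, called E-boxes, and the regulators upstream of the Ib genes and of *BTS* are known to bind the form CACGTG, the G-box. Within 250 bases before to 50 bases after the annotated gene start, both strands read, the G-box letters were present in 3 of the 10 genes, *bHLH38*, *bHLH100* and *BTS*, compared with 7.68% of 27443 protein-coding genes. The E-box letters, which include every G-box, were present in 5 of the 10 genes, compared with 61.7% of all. The stretches around these hexamers are shown, read along the gene, because the tandem neighbors differ in the central hexamer and *BTS* carries 3 G-boxes close together. Capitals mark E-boxes, with 20 flanking bases on each side, from TAIR10.1.
BTS, chr3:6273800-6273921, plus strand: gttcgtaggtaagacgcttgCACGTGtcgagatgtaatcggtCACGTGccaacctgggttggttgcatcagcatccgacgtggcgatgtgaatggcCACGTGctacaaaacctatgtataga
bHLH38, chr3:21085317-21085362, minus strand: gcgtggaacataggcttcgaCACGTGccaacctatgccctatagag
bHLH39, chr3:21087752-21087797, minus strand: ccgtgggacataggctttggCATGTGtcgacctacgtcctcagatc
bHLH100, chr2:17199520-17199565, minus strand: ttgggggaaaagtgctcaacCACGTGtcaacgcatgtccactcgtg
The stretches of *bHLH38* and *bHLH39* had 31 of 46 bases in common, those of *bHLH38* and *bHLH100* 26 and those of *bHLH100* and *bHLH39* 25. They were lined up on their hexamers, so hexamer bases count among those in common, and no background was computed for such stretches. A match describes the letters and not the binding of a factor. The same windows of *IRT1*, *FRO2*, *AHA2*, *bHLH101* and *FER1* held no E-box letters, which says nothing of sites farther away.

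*BTS* (AT3G18290, chr3:6273966-6280562, plus strand), an E3 ligase with iron-binding domains that limits the deficiency response, was the steadiest of the 8 tested genes. It measured 23.3, 21.8 and 21.1 FPKM in the *bron-2* libraries, against 20.5, 20.2 and 21.6 FPKM in the wild type libraries. Wild type replicate 3 lay inside the *bron-2* range, so the groups overlapped. The difference was 0.08 (standard error 0.08, interval -0.11 to 0.28, unadjusted limma p = 0.336, exact permutation p = 0.2), equivalent to between 0.929-fold and 1.21-fold.

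*FER1* (AT5G01600, chr5:227953-230051, minus strand) encodes a plastid ferritin whose RNA accumulates with iron supply. It measured 56.4, 83.8 and 80.2 FPKM in the *bron-2* libraries, against 46.5, 38.8 and 57.7 FPKM in the wild type libraries. *bron-2* replicates 2 and 3 lay above all wild type libraries, whereas *bron-2* replicate 1 lay just below wild type replicate 3. The mean was 73.5 ± 14.9 FPKM in *bron-2* and 47.6 ± 9.50 FPKM in the wild type (SD, n = 3 each). *FER1* was higher in *bron-2* by 0.61 (standard error 0.19, interval 0.18 to 1.04), or 1.53-fold, with an unadjusted limma p-value of 0.0116. Its adjusted limma p-value was 0.366, so the rise did not pass the correction over all genes, and the exact permutation p was 0.2. The unadjusted p-value stayed under 0.05 in all 13 alternative fits, between 0.00218 and 0.0480. An annotated noncoding gene on the other strand, AT5G01595, overlaps 1334 bases of *FER1*, and it was at or below 0.144 FPKM in every library. Reads in that stretch cannot be assigned without strand, so this low value does not settle their origin.

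The wider iron pathway was examined with 58 further genes, grouped by role, of which 41 were tested and 3 were listed at 0 in all libraries. Of the 41 genes, 3 were called higher and 5 lower in *bron-2*, beside 4.03% higher and 5.76% lower of all tested genes. The remaining 33 genes were not called. Groups did not overlap in 11 of the 41 genes, with *bron-2* above in 6 and below in 5. Of all tested genes, 7.06% had *bron-2* above and 8.67% had it below without overlap. The median difference of the 41 genes was -0.01, with 18 higher and 23 lower. The smallest adjusted limma p-value was 0.254, so none passed the correction.

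**Figure D4:**
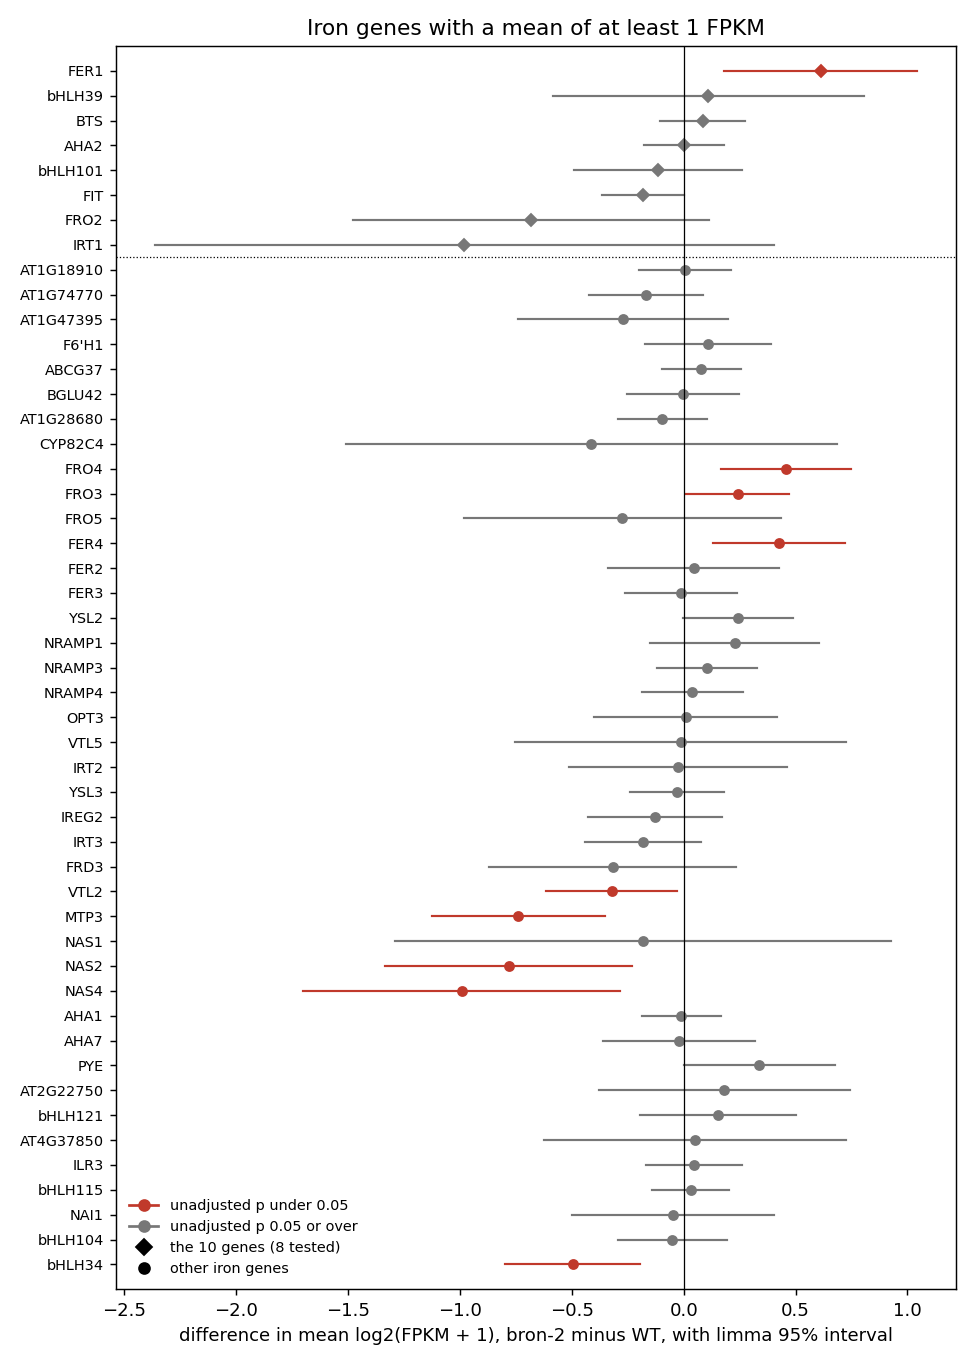
Difference in mean log2(FPKM + 1), *bron-2* minus wild type (WT), with limma's 95% interval, for the 8 tested genes of the 10 (diamonds, above the dotted line) and the 41 other tested iron genes grouped by role (circles). Red marks an unadjusted limma p-value under 0.05, and among the diamonds only *FER1* (0.61) is red, with *IRT1* (-0.98) and *FRO2* (-0.68) on wide intervals that cross 0.

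Among the ferritins, *FER4*, whose product reaches plastids and mitochondria, was called higher along with *FER1*. *FER4* measured 8.57, 11.5 and 10.2 FPKM in the *bron-2* libraries, against 7.95, 7.10 and 6.61 FPKM in the wild type libraries. *FER4* had every *bron-2* library above every wild type library, as in 7.06% of all tested genes (difference 0.43, standard error 0.13, unadjusted limma p = 0.0107, adjusted p = 0.366, exact permutation p = 0.1). It overlaps 118 bases of AT2G40290 on the same strand, which was at 46.0 to 52.8 FPKM in *bron-2* and 46.5 to 49.9 FPKM in the wild type, and reads there could belong to either gene. *FER3*, the most abundant ferritin, averaged 86.8 ± 4.62 FPKM in *bron-2* and 88.0 ± 11.5 FPKM in the wild type (SD, n = 3 each), a difference of -0.01 with an interval of -0.26 to 0.24. *FER2* was also not called.

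Of the ferric reductases, 2 of 3 tested genes other than *FRO2* were called, both higher, beside 4.03% of all tested genes called higher. *FRO4*, a reductase at the root surface that acts on copper, was higher, with 14.6, 14.5 and 13.3 FPKM in the *bron-2* libraries, against 9.82, 8.58 and 11.9 FPKM in the wild type libraries (difference 0.46, unadjusted limma p = 0.00673, adjusted p = 0.322, exact permutation p = 0.1). *FRO3*, a mitochondrial reductase, was also higher, with an average of 61.4 ± 7.08 FPKM in *bron-2* and 51.6 ± 2.37 FPKM in the wild type (SD, n = 3 each, difference 0.24, unadjusted limma p = 0.0416, adjusted p = 0.491, exact permutation p = 0.1), but it lost this call in 5 of the 13 alternatives. In both genes every *bron-2* library was above every wild type library, as in 7.06% of all tested genes. The differences of *FRO2* (-0.68) and *FRO5* (-0.27) were negative and not called.

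Nicotianamine synthases make the chelator that carries iron and zinc within the plant, and 2 of their 3 tested genes were called lower in *bron-2*, beside 5.76% of all tested genes. *NAS4* measured 1.57, 3.49 and 4.79 FPKM in the *bron-2* libraries, against 7.45, 9.08 and 5.19 FPKM in the wild type libraries, a difference of -0.99 (standard error 0.31, unadjusted limma p = 0.0124, adjusted p = 0.372, exact permutation p = 0.1). *NAS2* measured 5.78, 7.44 and 10.2 FPKM in the *bron-2* libraries, against 19.3, 11.7 and 11.6 FPKM in the wild type libraries, a difference of -0.78 (standard error 0.24, unadjusted limma p = 0.0116, adjusted p = 0.366, exact permutation p = 0.1). In both genes every *bron-2* library was below every wild type library, as in 8.67% of all tested genes, and both stayed called in all 13 alternatives. The third gene, *NAS1*, had a difference of -0.18 with an interval of -1.29 to 0.93 and was not called.

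Among 13 tested metal transporters, 2 were called, both lower, beside 5.76% of all tested genes called lower. *MTP3*, which moves zinc into the vacuole of root cells and is induced with the uptake machinery under iron shortage, measured 2.39, 1.82 and 3.35 FPKM in the *bron-2* libraries, against 4.61, 4.89 and 4.84 FPKM in the wild type libraries. The wild type libraries were nearly equal. *MTP3* had every *bron-2* library below every wild type library, as in 8.67% of all tested genes. Its difference of -0.74 (standard error 0.17, unadjusted limma p = 0.00240, exact permutation p = 0.1) had the smallest adjusted p-value of the iron genes, 0.254. *VTL2*, which belongs to the vacuolar iron transporter-like family, averaged 1.22 ± 0.0917 FPKM in *bron-2* and 1.78 ± 0.0944 FPKM in the wild type (SD, n = 3 each, difference -0.32, unadjusted limma p = 0.0358, adjusted p = 0.474, exact permutation p = 0.1), and lost the call whenever 1 library was left out. *IRT2*, the highest transporter of the group and the neighbor of *IRT1* on chromosome 4, averaged 57.8 ± 19.2 FPKM in *bron-2* and 56.8 ± 2.45 FPKM in the wild type (SD, n = 3 each).

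Of the 9 tested transcriptional regulators, 1 was called, or 11.1%, beside 9.79% of all tested genes. *bHLH34*, a subgroup IVc factor that acts upstream of the Ib genes, measured 2.44, 2.36 and 3.17 FPKM in the *bron-2* libraries, against 4.44, 4.11 and 3.86 FPKM in the wild type libraries. *bHLH34* had every *bron-2* library below every wild type library, as in 8.67% of all tested genes (difference -0.50, standard error 0.13, unadjusted limma p = 0.00548, adjusted p = 0.318, exact permutation p = 0.1). Its relative *bHLH115* was far more abundant, at 114 ± 4.18 FPKM in *bron-2* and 112 ± 5.53 FPKM in the wild type (SD, n = 3 each), with a difference of 0.03 and an interval of -0.14 to 0.20. The coumarin group, whose products are secreted to mobilize iron, had no call among 5 tested genes, and its most abundant gene, the exporter *ABCG37*, differed by 0.08 (interval -0.10 to 0.25). Neither of the 2 other proton pumps was called, and *AHA1* averaged 163 ± 11.3 FPKM in *bron-2* and 164 ± 2.33 FPKM in the wild type (SD, n = 3 each). The ratio of *AHA2* to *AHA1* was between 4.85 and 4.88 in *bron-2* and between 4.73 and 4.96 in the wild type. AT1G18910, annotated as a zinc ion binding protein, was the highest of the genes listed as BTS-like E3 ligases. It differed by 0.00725 with an interval of -0.20 to 0.21. AT1G47395, annotated as uncharacterized, was the highest of the genes listed as IRON MAN peptides. It was near the filter at 0.815 ± 0.343 FPKM in *bron-2* and 1.19 ± 0.372 FPKM in the wild type (SD, n = 3 each).

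**Figure D5:**
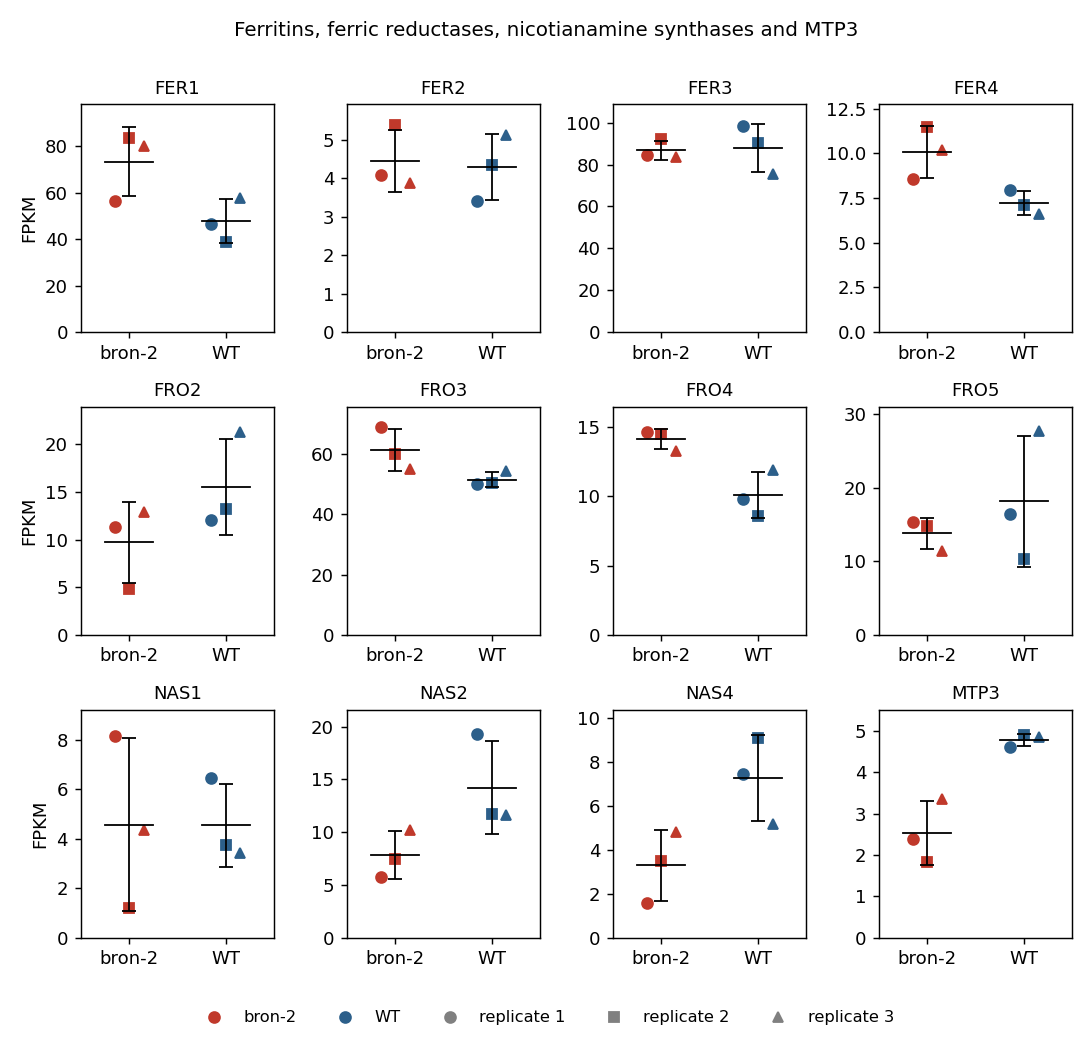
FPKM of the ferritins, the expressed ferric reductases, the expressed nicotianamine synthases and *MTP3* in the 3 *bron-2* (left, red) and 3 wild type (WT, right, blue) libraries, with marker shape giving the replicate number, horizontal lines the mean and bars the SD (n = 3), on linear axes that start at 0. *FER4*, *FRO3* and *FRO4* have all *bron-2* libraries above the wild type, as in 7.06% of all tested genes. *NAS2*, *NAS4* and *MTP3* have all *bron-2* libraries below the wild type, as in 8.67% of all tested genes.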

How the data were processed

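Total RNA of 6 root tip libraries was sequenced by the authors with single-end reads of 100 bases and mapped to TAIR10, and Cufflinks gave the expression values. Its version, the gene annotation and whether strand was used are not given in the sources used here. The deposited table holds FPKM, in which fragments were scaled for transcript length and library size, in 1 column per library. Depth in reads is unknown, so precision comes from the 3 libraries of each genotype. The wild type columns were named for Columbia-0. The other 3 carried a code that no label defines, and were taken as *bron-2*, the only other genotype, with the same replicate numbers.

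A gene was tested if its mean reached 1 FPKM, using limma 3.58.1 (R 4.3.3) and values of log2(FPKM + 1). Variances were moderated with a trend, tests were two-sided, and p-values were adjusted by the Benjamini-Hochberg method across every tested gene. The study used PoissonSeq, which needs counts. Exact permutation tests used Python 3.11.15. The fit was tested on simulated data. The alternatives were omission of the filter, a filter at 5 FPKM, a pseudocount of 0.1, median and quantile scaling, no variance trend, the replicate number as a block, and leaving out each library. Relative depth was read from genes with a mean under 0.2 FPKM.

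The 10 genes and all lists were chosen with earlier results of these data known. The text names the 10 genes, *BRON*, the other iron genes called at an unadjusted p-value under 0.05 and the highest gene of each role. *NAS1*, *FER2*, *FRO5* and the single marker genes were named after their values were seen. Gene positions and promoter sequences come from RefSeq TAIR10.1, and the deposited values carry no coordinates. Loci without a gene name there are given by locus.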

Additional observations from a re-analysis of the deposited data

How the results depend on the processing

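Of the 10 genes, *FER1* kept its direction and its call in all 13 alternatives, and *BTS* and *bHLH101* kept theirs without a call. The number of these genes called, 1 in the results, was 3 without the filter, where *FIT* (-0.18) and *bHLH38* (-0.65) passed, and 1 to 3 with each library left out (3 without *bron-2* replicate 3). With each library left out, the differences ran from -1.60 to -0.30 for *IRT1*, from -0.92 to -0.29 for *FRO2*, from -0.035 to 0.059 for *AHA2* and from -0.23 to 0.44 for *bHLH39*. Across genes, the r between same-numbered libraries, each centred on its genotype, was 0.123, -0.0133 and 0.186 for replicates 1, 2 and 3, and 4 of 6 libraries matched their own number best, so the numbers were not taken to pair the libraries. With the replicate number as a block, 3 of the 10 genes were called, *FER1* with *IRT1* (-0.98) and *FRO2* (-0.68), and 2253 of all genes. The 8 calls among the other iron genes became 5 at a mean of at least 5 FPKM, 10 with the block, median scaling or quantile normalization, 9 with a pseudocount of 0.1 or no filter, and 6 to 9 with a library left out. *VTL2* (-0.32) also lost its call with the block. Over all genes, the 1674 unadjusted calls ranged from 1056 (without *bron-2* replicate 2, and 1061 without wild type replicate 2) to 2298 with a library left out, the 14 adjusted calls from 8 (without *bron-2* replicate 1 or wild type replicate 2) to 33 (without wild type replicate 3, and 27 without wild type replicate 1), and the adjusted calls numbered 7 at a mean of at least 5 FPKM. Differences near 0 changed sign for *FER3* (0.00574 after quantile normalization, and -0.12 to 0.070 with a library left out), *AHA1* (-0.044 to 0.048), *bHLH115* (-0.00875 to 0.060), *IRT2* (-0.26 to 0.21) and AT1G18910 (-0.039 to 0.039). The causes were not tested. The values of *bHLH38* and *bHLH100* rest on at most 11 steps per library. These genes had no value in the alternatives that kept a filter, nor had *bHLH39*, *bHLH101*, *bHLH34*, *MTP3* and *VTL2* at a mean of at least 5 FPKM.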
